A study of Mus musculus with 32 samples.

Results

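The genes described here encode proteins of the cytosolic ribosome. They were taken as every probe of the array whose annotation names a single gene with a symbol beginning Rpl or Rps and a digit, or Rpsa, leaving out the Rps6k kinases and symbols marked as pseudogenes. The rule found 214 of the 35556 probes, which name 60 of the 19938 genes that have a probe of their own, and it used no measured value. By name, 35 of the genes with 127 probes belong to the large subunit and 25 with 87 probes to the small subunit. A single probe represented 23 genes and several probes represented 37, with 14 probes for Rps12, and 19 probes shared all their values with another probe. A further 17 ribosomal protein genes, among them Rpl11, Rpl22l1, Rpl39 and Rps27, lay only on probes naming several genes and were not analysed here. Rps19bp1, named for a protein that binds Rps19, Rps4l, listed by RefSeq as a transcribed pseudogene, and Rps23rg1, named as a retrogene of Rps23, met the rule without being standard ribosomal subunits.

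Germ cells of mouse fetuses were profiled on 32 expression arrays in 11 groups, each of 3 arrays except the DEHP females of the first generation, which had 2. Pregnant dams received 0.2 mg/kg/day of bisphenol A (BPA), 750 of di-(2-ethylhexyl)phthalate (DEHP), 100 of vinclozolin (VZ) or the oil vehicle from 12.5 days post coitum (dpc), and the germ cells of their fetuses were collected at 17.5 dpc. The first generation (G1R, labelled FVBxOG2) was exposed in utero and gave both sexes under oil, BPA, DEHP and VZ. The second generation (G2R, labelled OG2xFVB) had OG2 mothers and, per the study's description, FVBxFVB fathers that had been exposed in utero. It was not dosed itself and gave males of the oil, DEHP and VZ lines. Every fetus of these groups carried the OG2 transgene, in which an Oct4 promoter drives EGFP. Cells were sorted by that fluorescence, which selects cells in which the transgene was active. The purity of the sorted cells is not given. Nothing in the labels says that the arrays of a group came from separate litters, so p-values measure only the spread between these arrays, which may be technical. Generation, direction of the cross and time of the array run changed together and cannot be told apart.

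Ribosomal proteins surround the ribosomal RNA in a small subunit, which decodes the message, and a large subunit, which joins amino acids. One copy of nearly every protein is needed per ribosome, and their messages usually begin with a pyrimidine tract through which growth signals adjust translation. Several genes have paralogues that are used in particular tissues, among them Rpl10l and Rpl39l in the testis, where the X chromosome that carries Rpl10 and Rpl39 is silenced during meiosis.

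The stretches around the listed starts of 7 genes that led the comparisons are shown so that they can be set side by side. They run from 70 bases before to 20 bases after the start, 5′ to 3′ on the strand of the gene, in RefSeq's sequence of build GRCm38.p6, and capitals mark the letters CCGGAAG or their complement, the core read by ETS factors.
Rps27l, chr9:66946016-66946105, plus strand: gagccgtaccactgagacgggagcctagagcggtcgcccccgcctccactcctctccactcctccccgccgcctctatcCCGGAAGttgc
Rpl12, chr2:32961642-32961731, plus strand: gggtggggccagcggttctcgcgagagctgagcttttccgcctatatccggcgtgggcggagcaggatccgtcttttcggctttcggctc
Rpl10, chrX:74270746-74270835, plus strand: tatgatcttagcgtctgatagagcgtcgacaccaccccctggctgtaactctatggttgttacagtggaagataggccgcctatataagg
Rpsa, chr9:120127696-120127785, plus strand: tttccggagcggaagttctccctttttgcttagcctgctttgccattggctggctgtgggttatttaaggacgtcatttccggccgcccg
Rpl6, chr5:121204431-121204520, plus strand: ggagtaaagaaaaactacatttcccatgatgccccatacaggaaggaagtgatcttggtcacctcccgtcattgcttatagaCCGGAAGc
Rps12, chr10:23787190-23787279, minus strand: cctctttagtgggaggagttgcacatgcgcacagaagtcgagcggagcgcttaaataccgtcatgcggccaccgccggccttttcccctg
Rps3a1, chr3:86142649-86142738, minus strand: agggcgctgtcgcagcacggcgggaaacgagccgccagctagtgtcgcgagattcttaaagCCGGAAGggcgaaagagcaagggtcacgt
The capitals stand in Rps27l, which was higher in females, in Rpl6, which was lower in females, and in Rps3a1, which was higher in G2R males. Of the 60 genes, 49 had a promoter in the table, from 250 bases before to 50 after the start, and 18 of the 49 (36.7%) held CCGGAAG on either strand, against 9.93% of all 27025 genes in the table. A run of at least 8 C or T within 50 bases of a listed start was present in 38 of the 49 (77.6%) and in 39.3% of all genes. Among the genes higher in females under oil, 3 of the 10 with a promoter held CCGGAAG and 7 the run. Among those lower in females, these were 7 and 10 of 14. These matches describe letters only.

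The members were among the bright probes of the array. Their mean log2 signals ran from 6.96 to 13.86, 89 probes lay above 12, and all 214 lay above the boundary of 6.7 used here for dim probes. The SD between arrays of a group had a median of 0.11 for the members and 0.15 for all probes, so small differences were measurable. Probes of the same gene deviated together, with a median correlation of residuals over the 32 arrays of 0.929, as against 0.226 for probes of different genes. Processed pseudogenes carry near-identical copies of these genes, so the signal of such a set of probes cannot be divided among copies. For this reason probes were tested one by one, a gene was counted as higher or lower only where all of its probes passed, and its level on an array was the mean of its probes.

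The label of germ cells was checked on marker genes. Of the 8 germ cell genes listed, Dazl, Ddx4 and Mael had group mean log2 signals of at least 11.59 in all 11 groups. Pou5f1, the Oct4 gene itself, was at 10.83 in G1R oil males and 7.65 in G1R oil females, and Dppa3 stood the other way, at 7.11 and 11.04. The other germ cell genes were low, with Dnd1 at 8.35 and 6.89 and Nanos2 at 6.29 and 6.38 in the same order, and Nanos3 between 7.05 and 7.53 over the 11 groups. Markers of supporting and other cells were not absent. Under oil, 4 of 8 Sertoli cell genes, 2 of 4 fetal Leydig cell genes, 2 of 5 granulosa cell genes, 6 of 7 endothelial genes, 4 of 7 peritubular and interstitial genes and 1 of 5 blood genes were lower in females, and 1 interstitial gene was higher, where all probes were lower for 32% of all 19938 genes and higher for 30.5%. The mean level of the 7 endothelial genes ran from 6.43 to 6.57 on the oil female arrays and from 7.62 to 7.71 on the oil male arrays, and that of the 8 Sertoli genes from 7.21 to 7.24 and from 7.65 to 8.01. No true zero exists on this scale, and Fshr (6.33 in both) and Hbb-bh1 (4.84 and 4.61) were dim in both sexes. These values move with every female to male difference below, and their part in it was not tested. Fewer cells of a type and less RNA per cell cannot be told apart. Which cells on an array gave these marker signals was not tested.

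At this age female germ cells are in meiosis and male germ cells have stopped dividing. On the deposited scale females had a higher signal for some ribosomal protein genes and a lower one for a larger number, a balance that turned when each array was centred on its median. Under oil, the 3 genes with the greatest increase in females were Rps27l (4.09-fold), Rpl12 (3.71-fold) and Rpl10 (3.18-fold), and the 3 with the greatest decrease were Rpsa (2.1-fold), Rpl6 (1.85-fold) and Rpl8 (1.76-fold). All probes of 11 genes were higher and all probes of 19 genes were lower, 28 genes had no probe that passed, and Rps21 and Rpl5 had 1 probe each. Of the 214 probes, 107 passed limma's test at an adjusted p under 0.05, 28 higher and 79 lower. In this comparison 54.3% of all probes and 63.6% of the probes of single genes passed, so the 50% of members that passed were no excess, while the members higher were 13.1% beside 28.7% of all probes and the members lower 36.9% beside 25.6%. Counted by gene, 18.3% of the members were higher beside 30.5% of all genes, and 31.7% were lower beside 32%. The rule that all probes pass is stricter for the members, which have 214 probes for 60 genes. All genes have 21789 single-gene probes for 19938 genes. The shares by gene are therefore unlike measures, and they cannot show whether lower members were in excess.

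The balance between the directions depended on how the arrays were scaled. The median log2 difference of the members was -0.09 under oil, -0.04 under BPA, -0.14 under DEHP and -0.12 under VZ, beside medians of all probes of 0.05, 0.08, 0.09 and 0.11. Centring each array on its median moved the median of all probes by 0.15, 0.16, 0.17 and 0.14, to 0.20, 0.24, 0.26 and 0.25. The split of calls among the members then became 58 higher and 40 lower under oil, 88 and 36 under BPA, 56 and 34 under DEHP, and 64 and 40 under VZ. All probes moved with the members. The share of all probes called after centring is not given, so this turn is no result about the members. Set against the median of all probes, the members were lower in females under each scaling, with a difference of medians under oil of -0.14 as deposited, -0.10 after cyclic loess and -0.14 after centring. Under DEHP these were -0.23, -0.15 and -0.23. The distance was smaller against the probes that name a single gene. It was -0.09, -0.04, -0.18 and -0.18 under oil, BPA, DEHP and VZ as deposited, in place of -0.14, -0.12, -0.23 and -0.23. Genes with several probes enter the members' medians more than once. With 1 mean per gene the medians of the 60 genes were -0.053, -0.022, -0.118 and -0.075 in the same order. The probes of single genes had medians of -0.006, 0.004, 0.042 and 0.055.

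Rps27l, a paralogue of Rps27 known as a target of p53, showed the greatest rise. Its log2 signals were 11.55, 11.35 and 11.42 on the oil female arrays and 9.04, 9.61 and 9.58 on the oil male arrays. Every female array thus lay more than 1 unit above every male array, and the difference was 2.03 ± 0.15 (SE; limma, adjusted p = 7.2e-12). It was 1.93 under BPA, 1.83 under DEHP and 1.72 under VZ. Rpl12, which sits at the base of the stalk that recruits translation factors, read 8.85, 8.89 and 8.83 in oil females and between 6.81 and 7.09 in oil males. The difference was 1.89 ± 0.15 (SE; adjusted p = 4.64e-11) under oil and 1.43, 2.02 and 1.77 under BPA, DEHP and VZ. Under DEHP one of the 2 female arrays stood at 9.38 and the other at 8.55, both above all males.

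Of the 4 genes listed as X-linked, 3 had probes of their own, and they did not move together. Rpl10, which is placed late on the large subunit and is needed for the subunits to join, was higher in females on all 6 probes. Its values were 13.40, 13.29 and 13.34 in oil females and 11.50, 11.65 and 11.87 in oil males, a difference of 1.67 ± 0.09 (SE; largest adjusted p of the 6 probes 4.73e-14). The difference was 1.23, 1.34 and 1.38 under BPA, DEHP and VZ. Rpl36a rose by 0.49 ± 0.10 (SE; largest adjusted p 0.000131), with females between 12.20 and 12.43 and males between 11.76 and 11.91. Rps4x, a small subunit protein, was lower in females by the same test, with females between 11.12 and 11.22 and males between 11.44 and 11.53, a difference of -0.32 ± 0.09 (SE; largest adjusted p 0.00959), and after centring its 5 probes no longer passed.

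Of the 9 paralogues, 6 were measured on their own. Under oil 3 were higher, 1 was lower and 2 did not pass, where 30.5% of all genes were higher and 32% lower. This mix of directions is no result about paralogues. Rpl7l1, a paralogue of Rpl7 that takes part in making the large subunit, read 10.69, 10.68 and 10.70 in oil females and 9.51, 9.95 and 9.54 in oil males (difference 1.02 ± 0.10, SE; adjusted p = 1.27e-09). Rpl10l, the autosomal paralogue of Rpl10, was at 10.52, 10.53 and 10.52 in females and 10.19, 10.28 and 10.01 in males (0.36 ± 0.10, SE; adjusted p = 0.00277). Rpl10 and Rpl10l were thus both higher in the same sex under oil, but the Rpl10l difference did not pass after cyclic loess (0.18, adjusted p = 0.116) and was 0.06 under VZ. Rpl3l, the striated muscle paralogue of Rpl3, was dim and lower in females, at 6.52, 6.53 and 6.45 against 7.29, 7.39 and 7.23 (-0.81 ± 0.12, SE; adjusted p = 3.45e-06). Rpl39l missed the test under oil (-0.23 ± 0.13, SE; adjusted p = 0.132), as it did under BPA (-0.02), but fell under DEHP (-0.42) and VZ (-0.38). Rps4l missed it under oil (0.03 ± 0.12, SE; largest adjusted p 0.951) and rose under DEHP (0.42).

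Among the large subunit genes of the autosomes, Rpl22, which also binds RNA outside the ribosome, and Rpl27a were the others that rose by about 1 unit under oil. Rpl22 was at 9.35, 9.06 and 9.09 in females and 8.15, 8.12 and 8.09 in males (1.04 ± 0.11, SE; adjusted p = 3.64e-09). All 9 probes of Rpl27a were higher, by 0.86 to 1.08, and the gene read 11.56, 11.46 and 11.61 against 10.56, 10.55 and 10.57 (0.98 ± 0.10, SE). No female array of either gene reached down to the males. Rpl6 and Rpl8 showed the opposite pattern. Rpl6 was at 11.86, 11.88 and 11.91 in females and 12.88, 12.78 and 12.66 in males (-0.89 ± 0.08, SE; largest adjusted p of its 3 probes 1.17e-09). Rpl8 was at 11.45, 11.37 and 11.41 and at 12.21, 12.26 and 12.20 (-0.81 ± 0.09, SE; adjusted p = 3.58e-08). Rpl4, whose protein lines the exit tunnel for the new chain, fell by 0.65 on the log2 scale (SE 0.08), and Rpl24 dropped by 0.68 (SE 0.14).

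Of the 25 genes named Rps, 3 were higher and 6 were lower under oil, where 30.5% of all genes were higher and 32% lower. Rpsa, which is also known as a laminin receptor, fell most. Its mean over 5 probes was 10.52, 10.46 and 10.62 in oil females and 11.82, 11.51 and 11.47 in oil males (-1.07 ± 0.11, SE; largest adjusted p 1.06e-07). The groups did not overlap. Rps3a1 fell by 0.68, Rps2 by 0.57 and Rps18, whose protein is in the head of the subunit, by 0.57, the latter on all 7 probes. Those higher were Rps27l, Rps20, by 0.28 ± 0.08 (SE), and Rps19bp1, which is no subunit of the ribosome itself.

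**Figure D1:**
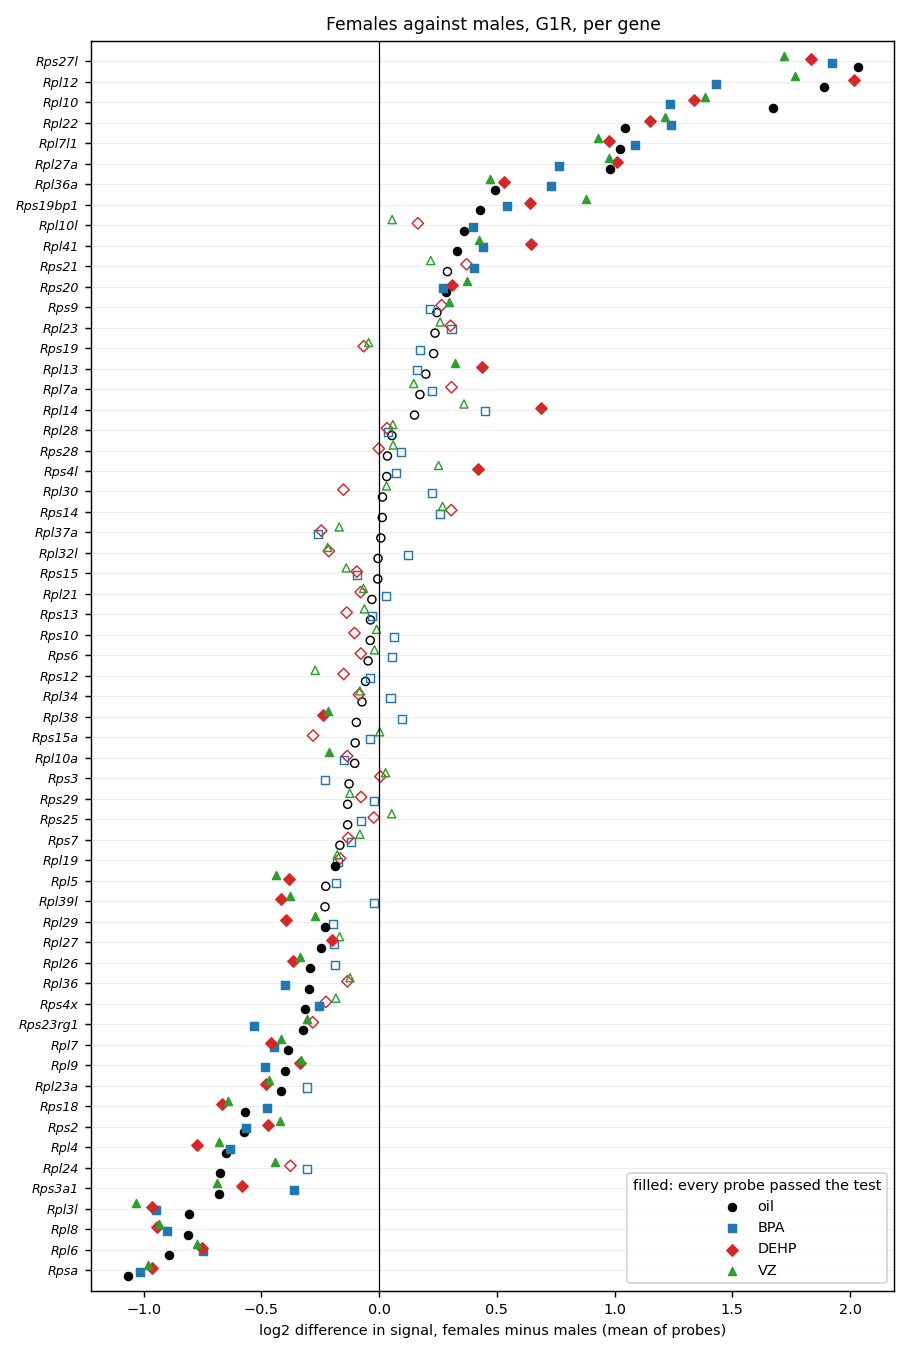
Difference in log2 signal between females and males of G1R (horizontal axis, females minus males, mean over the probes of a gene) for the 60 genes, under oil, BPA, DEHP and VZ. Filled points mark genes with every probe past limma's test at an adjusted p under 0.05; genes are ordered by the oil difference, and under all 4 treatments Rps27l and Rpl12 lie farthest right and Rpsa, Rpl8 and Rpl3l are among the 4 genes farthest left.

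The 4 treatments, which share no array in this comparison, gave much the same list. Under BPA 104 member probes passed, 31 higher and 73 lower, where 55.8% of all probes passed, 30.6% higher and 25.1% lower. Under DEHP 113 passed, 42 higher and 71 lower, beside 52.1%, 28.5% and 23.6% of all probes, and 75 passed without DEHP female 1. Under VZ 119 passed, 40 higher and 79 lower, beside 55.4%, 31% and 24.5%. Under all 4, every probe was higher for 10 genes, Rpl10, Rpl12, Rpl22, Rpl27a, Rpl36a, Rpl41, Rpl7l1, Rps19bp1, Rps20 and Rps27l, and lower for 10 genes, Rpl3l, Rpl4, Rpl6, Rpl7, Rpl8, Rpl9, Rps18, Rps2, Rps3a1 and Rpsa. With cyclic loess and median centring required as well, 9 of the former and 6 of the latter remained, the 6 being Rpl3l, Rpl4, Rpl6, Rpl8, Rps18 and Rpsa. The mean difference had the same sign under all 4 treatments for 47 of the 60 genes. The test of whether an agent changed the sex difference called 0 member probes for BPA, DEHP and VZ, with 9 (4.21%) at an unadjusted p under 0.05 for each, beside 4.84%, 7.47% and 6.21% of all probes. Without BPA male 3, the BPA male with the lowest Rpl10 signal, 2 probes of Rpl10 passed for BPA, and the share of all probes is not given. The smallest p belonged to Rpl10 under BPA, where the difference between the sex differences was -0.49 ± 0.13 (SE) on its leading probe (adjusted p = 0.705). Sertoli, fetal Leydig and interstitial markers had higher group means in BPA males than in oil males, and their part was not tested.

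Other genes of the pathway are given beside all genes, of which 30.5% were higher and 32% lower in oil females. Of the 4 stalk and fusion genes measured, 2 were lower in oil females on all their probes and 0 rose, the lower being Rplp0 (-0.36, adjusted p = 5.34e-05, on one of its probes) and Fau (-0.39, adjusted p = 8.82e-05, likewise). Of 13 translation factor and related genes whose messages carry the pyrimidine tract, 8 were lower and 0 higher, led by Eif3h (-0.92), Eef2 (-0.42), the elongation factor that moves the ribosome along, and Eef1b2 (-0.46). Ribosome biogenesis genes split, with more higher (17 of 40) than lower (10). The lower included Polr1a (-1.73), the large subunit of RNA polymerase I, Heatr1 (-1.98) and Mybbp1a (-1.63). No higher gene of this list is named in this comparison, so the named genes do not stand for the list. Of 13 regulators 5 were higher and 6 lower. Mtor, the kinase that senses nutrients, was lower (-1.06), while Rheb, which activates it, was higher (1.88). Eif4e, the cap-binding factor, passed on 2 of its 3 probes (1.39 on the leading one). The 77 mitochondrial ribosomal protein genes, products of which serve a separate ribosome, were higher in 45 and lower in 10, with a median of 0.45 beside -0.05 over the 60 cytosolic genes.

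**Figure D2:**
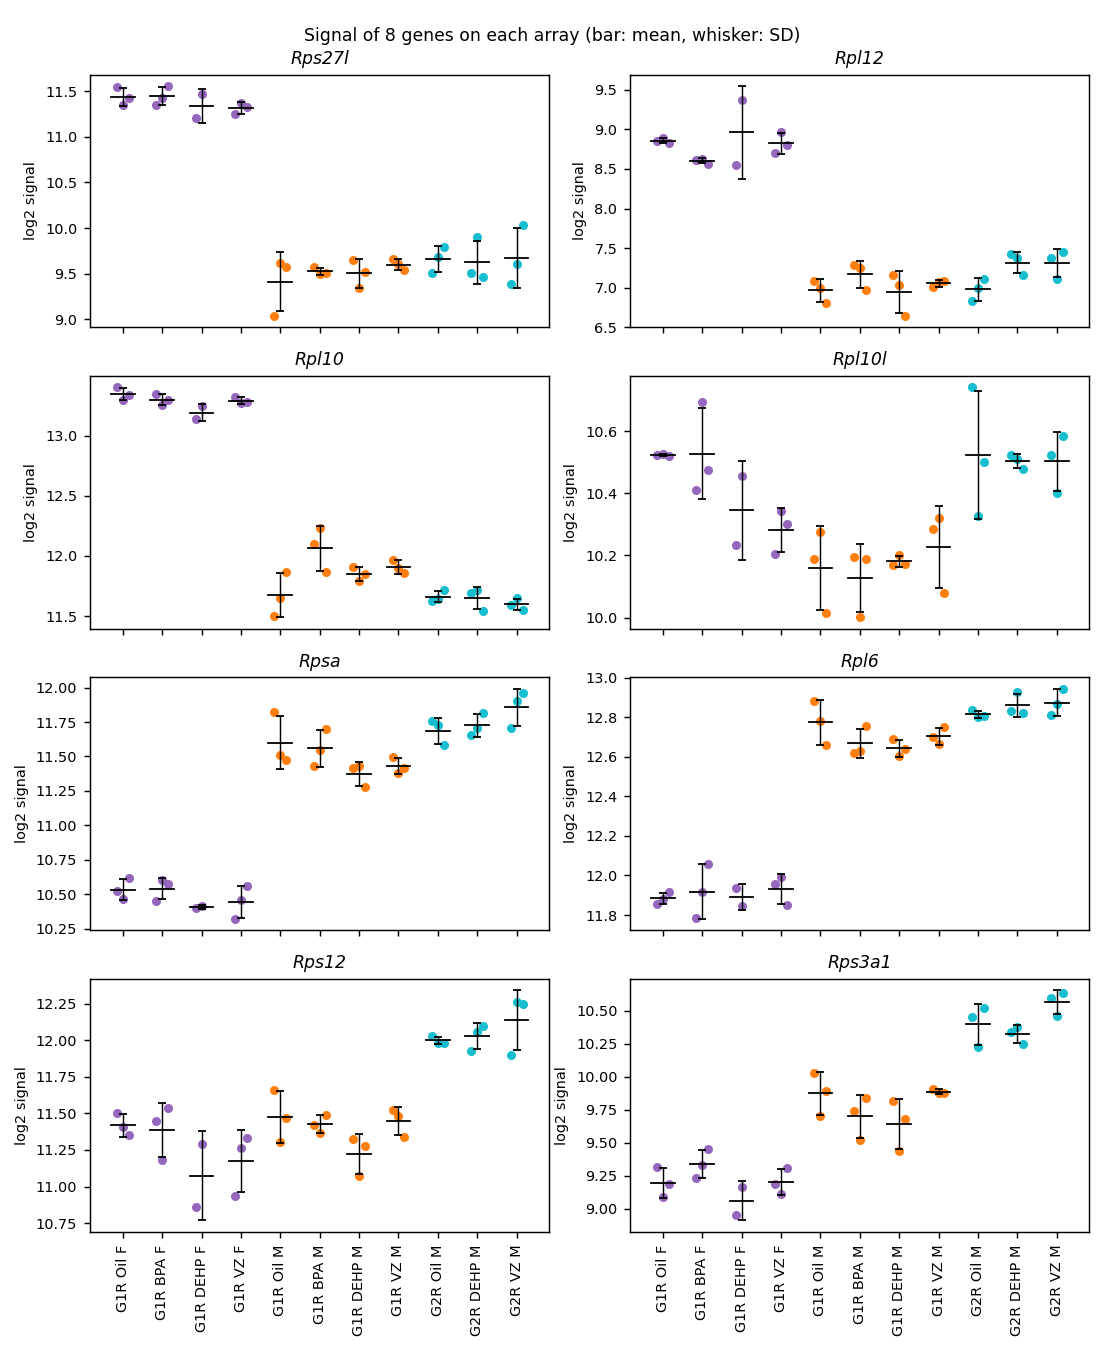
Log2 signal (vertical axis) of 8 genes on each array of the 11 groups (horizontal axis); points are arrays, horizontal bars the means and whiskers the SD, with 2 arrays for the G1R DEHP females. Rps27l, Rpl12 and Rpl10 are higher on every female array than on any male array, Rpsa and Rpl6 are lower, and Rps12 and Rps3a1 are highest in the G2R males.

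The comparison of exposed with oil germ cells asked for an immediate effect in G1R and a persistent one in G2R. In none of the 8 such comparisons did a member probe pass limma's test after adjustment over all probes. Over all probes 0 passed in 6 of the comparisons (0%) and 2 each (0.00562%) in DEHP males and VZ males of G1R. At an unadjusted p under 0.05 there were 0 of 214 members (0%) for BPA, 34 (15.9%) for DEHP and 7 (3.27%) for VZ in G1R females, beside 4.56%, 6.28% and 5.96% of all probes. In G1R males there were 12 (5.61%), 37 (17.3%) and 8 (3.74%) in the same order, beside 6.96%, 14.4% and 18.3%. In G2R males there were 8 (3.74%) for DEHP and 15 (7.01%) for VZ, beside 6.91% and 5.41%. The members' share thus lay above that of all probes in DEHP females, DEHP males and G2R VZ males and below it in the other 5 comparisons. Probes of the same gene moved together and enter these shares more than once, with 14 for Rps12 and 13 for Rpl23a.

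The members lay somewhat low under DEHP. Their median difference from oil was -0.09 in DEHP females and -0.11 in DEHP males, where the median of all probes was -0.01 in each. Of the 214 probes 165 and 174 were negative. The positive were 22.9% and 18.7% of the members, beside 47.8% and 47.2% of all probes. With 1 mean per gene, 45 and 46 of the 60 genes were negative. In the other comparisons the median of the members lay between -0.04 and 0.02. The lean in sign was not limited to G1R DEHP. Positive members were 29.9% in G2R DEHP males, and 30.8% in VZ males, 36.4% in BPA males and 38.3% in VZ females of G1R. Of all probes 52.3%, 47.8%, 44.5% and 49.3% were positive there. In BPA females and G2R VZ males positive members were 56.1% and 57%, beside 51.4% and 48.5% of all probes. After cyclic loess VZ males were low as well, at -0.09 in place of -0.04, beside -0.09 in DEHP females and -0.12 in DEHP males. In DEHP males the greatest difference of a single probe was that of Rps14 (-0.48), whose other probe differed by -0.20, and the smallest p values belonged to Rpl24. Rpl24, at 10.01, 9.95 and 9.66 beside 10.61, 10.11 and 10.22 under oil, differed by -0.42 to -0.46 on its 3 probes (smallest adjusted p = 0.148), and the arrays of the groups did not overlap. In DEHP females the probe of Rpl14 differed most (0.40, adjusted p = 0.838), and the 3 probes of smallest p belonged to Rpl23a, the leading one at -0.31 ± 0.11 (SE; adjusted p = 0.743). Markers of other cells stood high in BPA males. Every listed Sertoli, fetal Leydig and interstitial gene had a higher group mean there than in G1R oil males. Amh was at 8.64 and 7.32, Cyp17a1 at 10.24 and 8.94 and Dcn at 9.39 and 7.92. Granulosa, endothelial and blood genes went both ways. The part of such cells in the values of BPA males was not tested. In BPA males Rpl10 read 12.10, 12.23 and 11.86 beside 11.50, 11.65 and 11.87 under oil, with 0.43 ± 0.09 (SE) on its probe of greatest difference (adjusted p = 0.157). Its lowest BPA array lay within the oil arrays. That array is BPA male 3, and leaving it out enlarges the difference. Without it 6 member probes passed here, all of them of the 1 gene Rpl10, while the share of all probes is not given. Those that came nearest elsewhere were Rpl12 in BPA females (-0.26), Rpl10l in VZ females (-0.24), Rpl10 in VZ males (0.26), and Rps15a, a small subunit gene, in G2R males of the DEHP (0.40, adjusted p = 0.605) and VZ (0.45, adjusted p = 0.913) lines. All of these missed the test, and the comparisons of one sex and generation share their oil arrays.

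**Figure D3:**
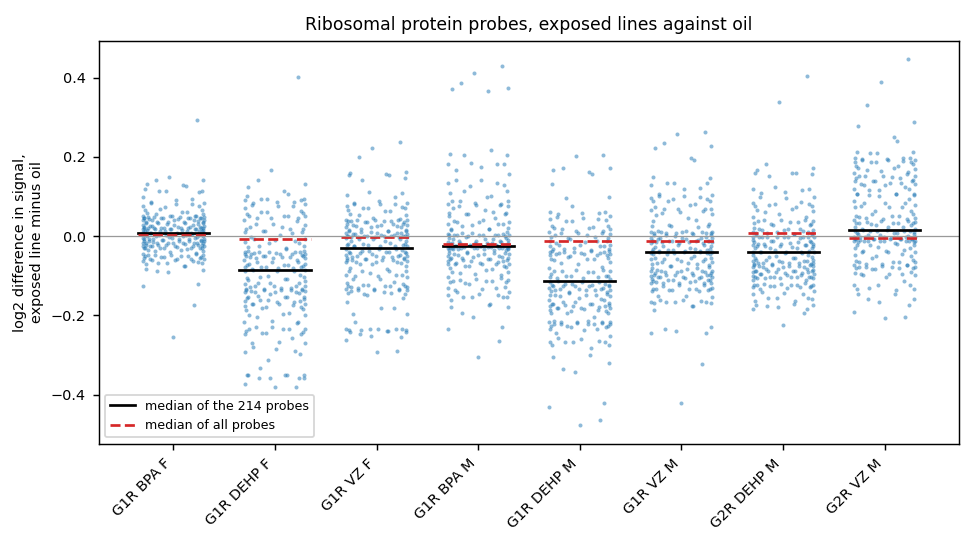
Log2 difference from oil (vertical axis) of the 214 probes, 1 point each, in the 8 comparisons of an exposed line with oil (horizontal axis); black bars are their medians and red dashed bars the medians of all probes. The black bars lie at -0.09 and -0.11 in the G1R DEHP females and males and between -0.04 and 0.02 elsewhere; 0 points passed the test.

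The arrays were also compared one by one. Taking the mean of the 214 probes on each array, less its mean over all arrays, the lowest of the 32 arrays were DEHP female 1 at -0.20, VZ female 1 at -0.16 and DEHP male 2 at -0.13, and these are the 3 arrays whose run names carry an added letter R, of which no source used here gives the meaning. Without these 3 arrays the median difference from oil was -0.04 in DEHP females, where 1 array then remained, -0.09 in DEHP males and 0.01 in VZ females, with 0 probes called. DEHP male 3, without the letter, stood at -0.12. The spread of this mean within groups was 0.06 (SD). Whether these arrays differ in RNA or in handling was not tested.

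**Figure D4:**
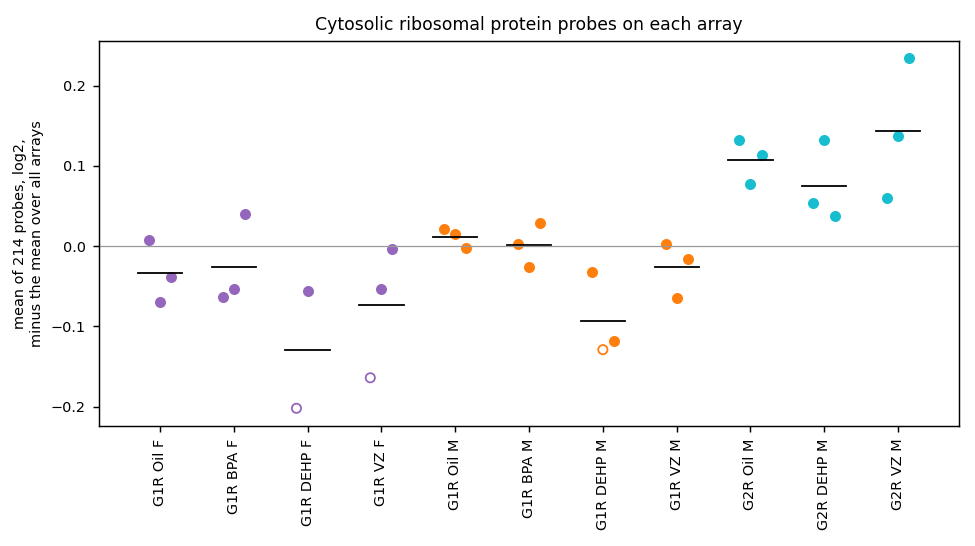
Mean log2 signal of the 214 probes on each array, less the mean over the 32 arrays (vertical axis), by group (horizontal axis); points are arrays, bars are group means, and open points are the 3 arrays whose run names carry the letter R. These open points are the lowest of all, from -0.20 to -0.13, and every G2R array lies above 0.

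G2R males stood above G1R males of the same line. The mean of the 214 probes, on the scale just given, was 0.11 ± 0.03 (SD, n = 3) in G2R oil males and 0.01 ± 0.01 in G1R oil males. It was 0.07 ± 0.05 and -0.09 ± 0.05 in the DEHP line, and 0.14 ± 0.09 and -0.03 ± 0.04 in the VZ line. In each line the G2R arrays all lay above the G1R arrays. Under limma's test 28 member probes passed in the oil line, all of them higher, where 10.3% of all probes passed, 5% higher and 5.3% lower. Of these 28, 14 were probes of Rps12 and 5 of Rpl5, so a few genes were counted many times. The 14 probes of Rps12 were also among those higher in the other lines. In the DEHP line 52 passed with 50 higher, beside 14.5%, 6.91% and 7.56% of all probes, and in the VZ line 51 with 46 higher, beside 7.77%, 2.98% and 4.78%. The median difference of the members was 0.08, 0.15 and 0.15, beside -0.03 in the oil line and -0.01 in the VZ line over all probes, the value of the DEHP line being 0. In the oil line this depended on the scaling: after cyclic loess the members' median exceeded that of all probes by 0.02 in place of 0.11, and 17 probes were higher and 4 lower. For the alternatives that follow, the share of all probes called is not given. The lower counts are therefore no result about the members. With only the arrays compared in the fit the counts called fell to 2, 20 and 8 in the oil, DEHP and VZ lines. At 1.5-fold or more they were 0, 19 and 22. The count of 28 in the oil line fell to 14 without G1R oil male 3 and to 18, 18 and 17 without G2R oil males 1, 2 and 3, and that of 51 in the VZ line to 28 without G1R VZ male 2 and to 31 and 26 without G2R VZ males 2 and 3.

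By gene, all probes were higher for 5 genes in the oil line, 10 in the DEHP line and 8 in the VZ line, and all probes were lower for 1 gene, Rpl29, in the DEHP line. As shares the higher were 8.33%, 16.7% and 13.3% of the members, beside 5.66%, 7.08% and 2.65% of all genes. The rule that all probes pass was again stricter for the members, which have more probes per gene. Rps12 and Rps3a1 were higher in all 3 lines. Rps12, a small subunit protein, was at 12.03, 11.98 and 11.98 in G2R oil males and 11.66, 11.30 and 11.47 in G1R oil males (0.52 ± 0.13, SE; largest adjusted p of 14 probes 0.0362). The difference was 0.80 ± 0.13 in the DEHP line and 0.69 ± 0.13 in the VZ line, and no G2R array overlapped a G1R array of its line. In the oil line 4 of the 14 probes did not pass after cyclic loess, and none passed when the fit held only the arrays compared. Rps3a1 read 10.46, 10.22 and 10.52 in G2R oil males and 10.03, 9.70 and 9.89 in G1R oil males (0.53 ± 0.11, SE; adjusted p = 0.00424), with 0.68 in both the DEHP and the VZ line.

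Rpl5, which carries a small ribosomal RNA into the large subunit and with Rpl11 can bind Mdm2, the inhibitor of p53, was at 12.42, 12.32 and 12.39 in G2R oil males and 12.02, 11.91 and 11.92 in G1R oil males. All 5 probes passed in the oil line (0.42 ± 0.11, SE; largest adjusted p 0.0219) and in the DEHP line (0.44 ± 0.11, SE), and 3 of 5 in the VZ line (0.34). Rpl24 and Rpl7 of the large subunit were higher in the DEHP line (0.72 and 0.50) and the VZ line (0.88 and 0.60), with Rpl24 the largest of all in the latter. In the oil line 3 of 4 probes of Rpl7 passed and 0 of 3 of Rpl24. Rps4x of the X chromosome was higher on all 5 probes in the DEHP line (0.42) and the VZ line (0.40), where in the oil line it differed by 0.10 (smallest adjusted p = 0.39). Rpl10 moved the other way in the VZ line, at 11.60, 11.65 and 11.55 in G2R and 11.97, 11.90 and 11.86 in G1R, with 5 of 6 probes past the test (-0.31 ± 0.09, SE).

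Of the 6 paralogues measured, 1 was higher in each line and 0 lower. Of all genes 5.66%, 7.08% and 2.65% were higher in the oil, DEHP and VZ lines, and 4.73%, 7.77% and 4.85% lower. Rpl10l was higher in G2R in the oil line (10.74, 10.33 and 10.50 beside 10.19, 10.28 and 10.01; 0.36 ± 0.10, SE; adjusted p = 0.0207) and the DEHP line (0.32, adjusted p = 0.0272), and was 0.28 in the VZ line, where it missed (adjusted p = 0.0868). In the oil line it did not pass after cyclic loess (0.28, adjusted p = 0.0689), with only the arrays compared (adjusted p = 0.136), or without G1R oil male 1, G1R oil male 3 or G2R oil male 1 (adjusted p from 0.0543 to 0.131). In the DEHP line it passed after cyclic loess but not with only the arrays compared (adjusted p = 0.0889), nor without any single array other than G2R DEHP male 3. Rpl39l, the testis paralogue of Rpl39, passed in the VZ line only (0.47 ± 0.13, SE; adjusted p = 0.0238), with 10.27, 10.22 and 10.14 beside 9.75, 9.87 and 9.62. It passed under each scaling, but not with only the arrays compared (adjusted p = 0.0663), nor without any single array other than G1R VZ male 2 or G2R VZ male 3. Rps27l, Rpl7l1 and Rpl3l, which differed most between the sexes among the paralogues, did not pass in any line, with differences of 0.25, 0.16 and 0.01 in the oil line. The 2 probes of Rps14 differed by -0.51 and -0.03 in the oil line and neither passed. Whether a line changed the difference between generations was tested for DEHP and VZ: 0 member probes passed, 18 (8.41%) and 28 (13.1%) had an unadjusted p under 0.05 beside 13.3% and 16.2% of all probes, and the smallest adjusted p values were 0.199 for Rps9 and 0.123 for Rpl24.

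Around the ribosome, 9 of 40 biogenesis genes were higher in G2R oil males and 0 lower, among them Ncl, the nucleolar protein nucleolin (0.40, adjusted p = 0.00272), Nop56 (0.55) and Rrs1 (0.76), and 4 and 3 were higher in the DEHP and VZ lines. Of all genes 5.66%, 7.08% and 2.65% were higher and 4.73%, 7.77% and 4.85% lower in the oil, DEHP and VZ lines. Of the 13 translation factor genes 1, 4 and 2 were higher and 0, 1 and 1 lower in the oil, DEHP and VZ lines. Fau, a fusion gene whose product includes a small subunit protein, was lower in the oil (-0.32) and DEHP (-0.28) lines. Of the 77 mitochondrial ribosomal protein genes 5 were higher and 4 lower in the oil line. Of the somatic markers, under oil 1 of 7 endothelial genes was lower in G2R, and no Sertoli, Leydig, granulosa, interstitial or blood gene passed, the mean of the 8 Sertoli genes running from 7.49 to 7.85 in G2R oil males and from 7.65 to 8.01 in G1R oil males. In the DEHP line 2 Sertoli, 1 granulosa, 1 endothelial and 1 interstitial gene were lower and 1 blood gene higher, and the mean of the 4 Leydig genes reached 9.16 on 1 array. The marker counts of the VZ line are not given here. The part of the somatic markers in the differences of the ribosomal protein genes was not tested.

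**Figure D5:**
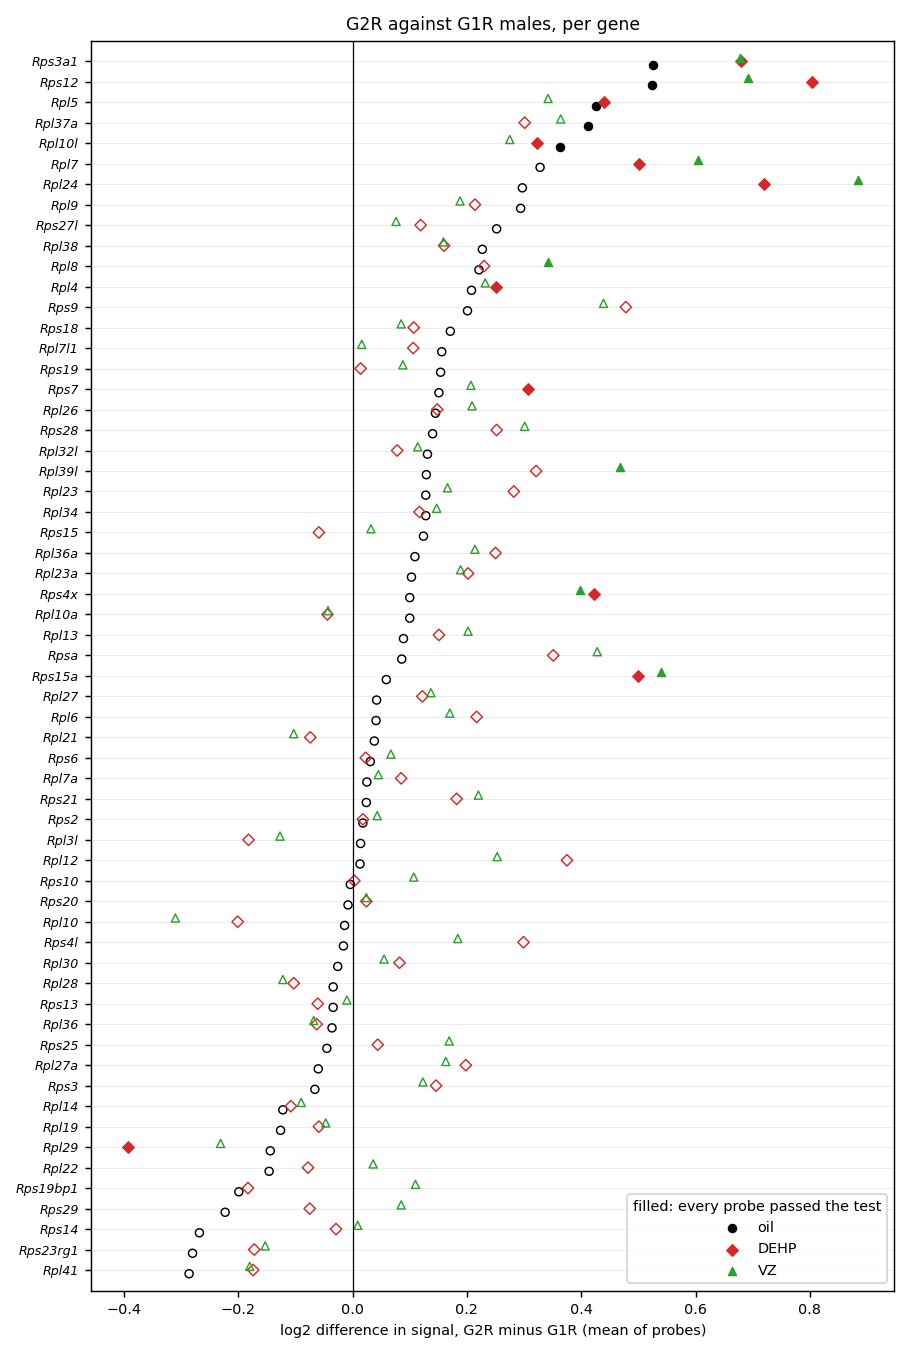
Difference in log2 signal between G2R and G1R males (horizontal axis, G2R minus G1R, mean over the probes of a gene) for the 60 genes in the oil, DEHP and VZ lines. Filled points mark genes with every probe past limma's test at an adjusted p under 0.05, and most points lie to the right of 0, with Rps12, Rps3a1 and Rpl24 farthest right in the DEHP and VZ lines.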

How the data were processed

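RNA of sorted germ cells was hybridised to 32 Affymetrix Mouse Gene 1.0 ST arrays. The deposited values are log2 signals that the authors made with RMA in Partek (versions not given in the sources used here). Array medians ran from 7.29 to 7.50. Arrays have no read depth; their number limits the precision. The members and gene lists were chosen with earlier results of these data known. Groups followed the sample titles. limma 3.58.1 in R 4.3.3 fitted a mean per group to all 32 arrays and 35556 probes, with moderated variances (21 residual degrees of freedom) and Benjamini-Hochberg adjustment over all probes; an adjusted p under 0.05 was called. The procedure was tested on simulated data. Genes were named from GEO's platform annotation: 12146 probes had no listed gene and 1621 had several. The text names the paralogue, X-linked and Rpl5/Rpl11 lists, the 6 highest and 6 lowest called probes of a comparison, the 3 smallest p values where fewer than 3 passed, and up to 3 genes of each other list. Other genes were named after their values were seen. Promoters came from RefSeq. Figures were drawn with matplotlib 3.10.9.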

Additional observations from a re-analysis of the deposited data

How the results depend on the processing

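Of the 336 recomputed counts of called member probes, 315 stayed within 1.5 times the reported count. Many of these were 0 beside a reported 0, in the comparisons with oil and the tests of a changed difference. They say nothing about how stable the other counts are. For none of the alternatives in this section is the share of all probes called given. The counts that moved, with some ranges that did not, were these. Requiring at least a 1.5-fold difference left 37, 33, 43 and 40 probes in the sex comparison under oil, BPA, DEHP and VZ, and 0, 19 and 22 in the comparison of generations in the oil, DEHP and VZ lines. With only the arrays compared in the fit, the generation counts were 2, 20 and 8. Array quality weights gave 44 in the oil line. Leaving out 1 array at a time gave 87 to 103 in the sex comparison under oil, 85 to 100 under BPA, 75 to 103 under DEHP (75 without DEHP female 1) and 102 to 112 under VZ. It gave 14 to 24 in the oil line between generations, where 14 was without G1R oil male 3 and 18, 18 and 17 without G2R oil males 1, 2 and 3. In the DEHP line it gave 41 to 49, and in the VZ line 26 to 50, with 28 without G1R VZ male 2 and 31 and 26 without G2R VZ males 2 and 3. Without BPA male 3 of G1R, 6 probes passed for BPA males against oil (0 to 6 over the arrays left out) and 2 for the sex by BPA term (0 to 2), all of Rpl10. Some single probes that had passed as lower in females changed sign under another scaling, to values near 0. These were Rpl10a in the VZ sex comparison, to 0.017 and 0.007 after cyclic loess. After centring they were Rpl10a under BPA, to 0.008, and Rpl19 under DEHP, to 0.003. The causes were not tested, other than that fewer arrays entered the fit.

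Over 155 pairs of arrays with the same replicate number the median correlation of deviations was -0.01, beside 0.001 over 310 pairs with different numbers. Most of these pairs join different treatments or generations. A pairing of the sexes within a treatment therefore cannot be judged from them. With the replicate block, 107, 102, 102 and 118 probes passed in the sex comparison under oil, BPA, DEHP and VZ, and 25, 51 and 48 between generations in the oil, DEHP and VZ lines. Without the 3 arrays with R in their run names, an alternative chosen after seeing the data, 78 and 100 probes passed between the sexes under DEHP and VZ, and 40 between generations in the DEHP line. Precision is limited by the number of arrays, 3 or 2 in a group; depth does not apply.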
